A study of Mus musculus with 8 samples.

Results

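The 6 miRNAs described here are both arms of 3 related mouse hairpins, mmu-miR-28a-5p and mmu-miR-28a-3p, mmu-miR-151-5p and mmu-miR-151-3p, and mmu-miR-708-5p and mmu-miR-708-3p. They were chosen by name, as a group whose 5p arms are said to share a seed, and the choice was made with the sham and TAC counts of these libraries known. The sham and TAC levels of the members are therefore a description. No p-value is given for them, and the members called in the fit across all tested miRNAs are only counted beside the share called among all. All 6 names occur among the 697 miRNAs of the count tables, and 4 of them, both arms of miR-28a and of miR-151, had a mean above 100 counts and were among the 223 miRNAs tested. miR-28a-3p passed it only through the TAC libraries, with 96, 106, 90 and 72 counts in sham and 151, 178, 153 and 116 in TAC. The arms of miR-708 did not pass this filter. The nearest values on either side of it were 100.5 mean counts for miR-411-3p, inside, and 98.1 for miR-574-5p, outside.

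The small RNA libraries came from cardiomyocytes isolated from the hearts of male mice that were operated on at 2 months of age. In the TAC group the transverse aorta was constricted, which loads the left ventricle with pressure and leads to heart failure, and the sham group is the operated control. Each group has 4 libraries, each from 1 mouse, taken 14 weeks after surgery, although the methods also give 14 weeks as the age of the mice, and the strain is not given in the sources used here. The tables hold whole-number tag counts, whose totals lay between 4005668 and 5392576 in sham and between 5507169 and 7798943 in TAC.

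The libraries carried the miRNAs of heart muscle. The 5 cardiomyocyte markers (miR-1a-3p, miR-133a-3p, miR-208a-3p, miR-208b-3p and miR-499-5p) summed to 177299 ± 16433 CPM in sham and 222021 ± 21213 CPM in TAC libraries, relative to the library total (SD, n = 4 each), with miR-1a-3p the most abundant. Markers of other cells were present too, and none of the lists was at 0. The endothelial pair, miR-126a-3p and miR-126a-5p, summed to 60050 ± 10602 CPM in sham and 32856 ± 2415 in TAC. The 5 fibroblast and smooth muscle markers, led by miR-143-3p, summed to 45727 ± 3244 and 41029 ± 3062 CPM, and the 5 blood cell markers, led by miR-150-5p, to 2088 ± 794 and 1083 ± 273 CPM. The library of TAC mouse 4 stood apart, with 1406 CPM over the 6 epithelial markers where the other TAC libraries held between 223 and 328, and 88.9 CPM over the 3 pancreas acinar markers where the others held between 15.3 and 27.2. The fold changes, the ratios between members and the arm shifts of the tested members are given with and without it. In these bulk samples, fewer cells of a type and less miRNA per cell cannot be told apart, and the part of these cell types in the values that follow was not tested.

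A miRNA recognises its target mRNAs mainly through its seed, the bases at positions 2 to 8 from its 5′ end, so arms with an equal seed are expected to share predicted targets and arms with different seeds are not. Each hairpin yields a 5p and a 3p arm, of which usually the more abundant one is loaded into an Argonaute protein. Many hairpins lie in introns of protein-coding genes and can be made from the same primary transcript as their host. RefSeq sequences matched 4 of the 6 members and 593 of all 697 names. They are shown, in GRCm38, to let the seeds be compared, with the seed in capitals.

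miR-28a-5p: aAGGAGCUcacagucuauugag
miR-708-5p: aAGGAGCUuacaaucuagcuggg
miR-28a-3p: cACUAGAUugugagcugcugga
miR-708-3p: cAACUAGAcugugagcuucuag

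miR-28a-5p and miR-708-5p had the same seed, and no other miRNA with a RefSeq sequence in the count tables had it. The seed of miR-151-5p was not compared here. Over the first 22 positions, counted from 1 at the 5′ end, miR-28a-5p and miR-708-5p had the same base at 16, and their longest common run was the first 8 bases. The differences, with the base of miR-28a-5p first, were C9U, G13A, U18G, U19C, G20U and A21G. The 3p arms did not share a seed. The longest run they had in common was UGUGAGCU, at positions 9 to 16 of miR-28a-3p and 10 to 17 of miR-708-3p. No other miRNA with a sequence in the tables had the seed of either 3p arm. The tables also list miR-28c, a further miRNA of this name that is not one of the 6, with between 0 and 4 counts per library.

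All 3 hairpins are intronic and lie on the strand of their host gene in GENCODE M21 (GRCm38). Mir28a occupies chromosome 16, 24827855 to 24827940, within an intron of Lpp, which encodes a LIM-domain protein of focal adhesions. Its mature 5p arm spans 24827868 to 24827889 and its 3p arm 24827908 to 24827929. Mir151 occupies chromosome 15, 73254815 to 73254882, on the minus strand within an intron of Ptk2, the gene of focal adhesion kinase, and the antisense gene 1700085D07Rik also spans it on the opposite strand. Mir708 occupies chromosome 7, 96249424 to 96249532, within an intron of Tenm4, which encodes a teneurin, a transmembrane adhesion protein. Levels of the host mRNAs were not analysed here.

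The 3 hairpins differed widely in abundance, and miR-151 supplied most of the tags. miR-151-5p ranked 37 of the 697 miRNAs by total count, miR-151-3p 63, miR-28a-5p 116, miR-28a-3p 215, miR-708-5p 383 and miR-708-3p 492. The 6 members together took 0.536% ± 0.123 of the sham and 0.511% ± 0.0370 of the TAC miRNA counts (SD, n = 4 each), and miR-151-5p made up 82.2% ± 2.59 of their sum (SD, n = 8). Each member exceeded the next in this order in 8 of 8 libraries. The first 4 pairs of neighbours differed by 5.75-fold, 5.16-fold, 6.93-fold and 9.72-fold from the highest pair to the lowest, as geometric means of the ratio within a library with 0.5 counts added to each member. The last pair, the arms of miR-708, has no firm ratio, since miR-708-3p had 0 counts in TAC mouse 3. The order was set on these same libraries, so it is given with no test. The narrowest gap in any library was that of 4 counts of miR-708-5p to 3 of miR-708-3p in Sham mouse 4. Tag counts of different miRNAs also depend on how well each is ligated and copied, so these ratios compare tags and not molecules.

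In each of the 3 hairpins the 5p arm was the more abundant one, in 8 of 8 libraries. miR-28a-5p made up 87.3% ± 2.31 of the tags of its hairpin (SD, n = 8), and the ratio of 5p to 3p ran from 4.96 in Sham mouse 1 to 9.76 in TAC mouse 4, next to 8.24 in TAC mouse 1. miR-151-5p made up 85.0% ± 2.68, and the ratio ran from 4.17 in Sham mouse 1 to 8.29 in TAC mouse 4, next to 6.56 in Sham mouse 2. miR-708-5p made up 76.1% ± 13.9, with few tags on either arm. The mean log2 ratio of the arms, with 0.5 counts added to each, was 2.79 ± 0.30 in miR-28a, 2.52 ± 0.31 in miR-151 and 1.76 ± 1.24 in miR-708 (SD, n = 8). The last value depends on the added count, through the 0 in TAC mouse 3, and was 1.57 with 1 count added and 1.41 without that library. All 3 had p = 0.00781 in a two-sided exact sign-flip permutation test over the 8 libraries, the smallest p that 8 libraries allow, and the same value after Benjamini-Hochberg adjustment over the 3 hairpins. The 5p arm was the more abundant one in 27 of the 43 hairpins with both arms tested.

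Sham and TAC were compared on 3 scales, because the scale can set the sign of a difference here. CPM by library total divides each count by the miRNA total of its library. Reference-scaled CPM uses the reference miRNAs named in the study's methods, miR-126a-3p together with miR-19b-3p, which are described there as unaltered and checked by QPCR. How they were applied is not stated there, and the single factor for all TAC libraries is a choice made here. By library total these were 39017 ± 10588 and 213 ± 36.4 CPM in sham, and 22483 ± 1313 and 107 ± 21.4 CPM in TAC libraries (SD, n = 4 each). The sizes of the TAC libraries were therefore multiplied by the geometric mean of the 2 ratios, 0.537, which raises every TAC value by the same factor. With a factor for each library instead, the log2 fold changes of miR-28a-5p, miR-28a-3p, miR-151-5p and miR-151-3p were 1.44, 1.10, 0.87 and 0.54. Their standard errors were 0.22, 0.29, 0.15 and 0.21. miR-126a-3p is also an endothelial marker. The third scale is edgeR's TMM, a trimmed mean that assumes that most miRNAs do not change. Over all tested miRNAs, the log2 fold changes had a median of 0.61 under the reference scaling, -0.082 under TMM and -0.29 by library totals.

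miR-28a-5p was higher in the TAC group on all 3 scales. By library total it had 103, 129, 137 and 109 CPM in the sham libraries of mice 1 to 4 and 227, 170, 148 and 157 CPM in the TAC libraries. All TAC libraries exceeded all sham libraries, and that of TAC mouse 1 was the highest. The raw counts behind these values were 478, 694, 674 and 435 in sham and 1248, 1329, 941 and 1136 in TAC. The log2 fold change was 0.56 by library totals (SE 0.17), 0.77 under TMM (SE 0.18) and 1.45 with the reference scaling (SE 0.18, 4 libraries against 4, from edgeR). Relative to the median of all tested miRNAs it was 0.85 higher on each scale, rank 12 of 223 from the highest with the reference scaling and by library totals and rank 11 under TMM. A change of scale moves all miRNAs by nearly the same amount, so this place could hardly differ between the scales. Without TAC mouse 4 the log2 fold changes were 0.60, 0.84 and 1.56 in the order of library totals, TMM and reference scaling. Without TAC mouse 1, the highest library, they were 0.41, 0.62 and 1.31.

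miR-28a-3p, the minor arm of the same hairpin, showed a smaller difference in the same direction. It had 20.7, 19.7, 18.3 and 18.0 CPM by library total in sham and 27.4, 22.8, 24.1 and 16.1 in TAC. TAC mice 1 to 3 lay above every sham library and TAC mouse 4 lay below them all, so the groups overlapped through this library alone. Between 72 and 178 tags per library stand behind these values. The log2 fold change was 0.23 by library totals (SE 0.21), 0.45 under TMM (SE 0.21) and 1.13 with the reference scaling (SE 0.21), and without TAC mouse 4 it was 0.37, 0.61 and 1.32. Leaving out TAC mouse 1 instead gave 0.13, 0.34 and 1.03. It ranked 24 of 223 from the highest by library totals and with the reference scaling.

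miR-151-5p, by far the most abundant member, had nearly equal group means by library total and was higher in TAC on the reference scale. Its CPM by library total were 3025, 5389, 5221 and 3888 in sham and 4468, 4296, 3845 and 4374 in TAC. The 4 TAC libraries lay inside the range of the sham libraries, among which mice 1 and 4 were low and mice 2 and 3 high. Means were 4381 ± 1126 and 4246 ± 276 CPM (SD, n = 4 each). The log2 fold change was -0.045 by library totals (SE 0.18) and 0.17 under TMM (SE 0.17), neither larger than its standard error, and 0.85 with the reference scaling (SE 0.18). In the same order they were -0.060, 0.18 and 0.89 without TAC mouse 4. By library totals the sign turned without Sham mouse 2 (0.070) or Sham mouse 3 (0.050), and the value was -0.19 without Sham mouse 1. Under TMM it ran from 0.063 without Sham mouse 1 to 0.30 without Sham mouse 2, so no direction is read on these scales. On the reference scale the TAC libraries held between 7163 and 8323 and the sham libraries between 3025 and 5389 reference-scaled CPM, without overlap.

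miR-151-3p was the lowest of the 4 tested members relative to the other miRNAs. It had 725, 822, 1003 and 816 CPM by library total in sham and 829, 667, 632 and 528 in TAC. TAC mouse 1 lay within the sham range and the other TAC libraries below it. The log2 fold change was -0.34 by library totals (SE 0.17), -0.13 under TMM (SE 0.17) and 0.56 with the reference scaling (SE 0.17). It stood 0.050 below the median of all tested miRNAs, at rank 129 of 223 with the reference scaling, and its groups overlapped on all 3 scales. On the reference scale the overlap came from TAC mouse 4 alone, with 983 reference-scaled CPM against 1177 to 1544 in the other TAC libraries and at most 1003 in sham. With that library left out, the log2 fold changes were -0.25, -0.0087 and 0.71 in the order above.

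**Figure D1:**
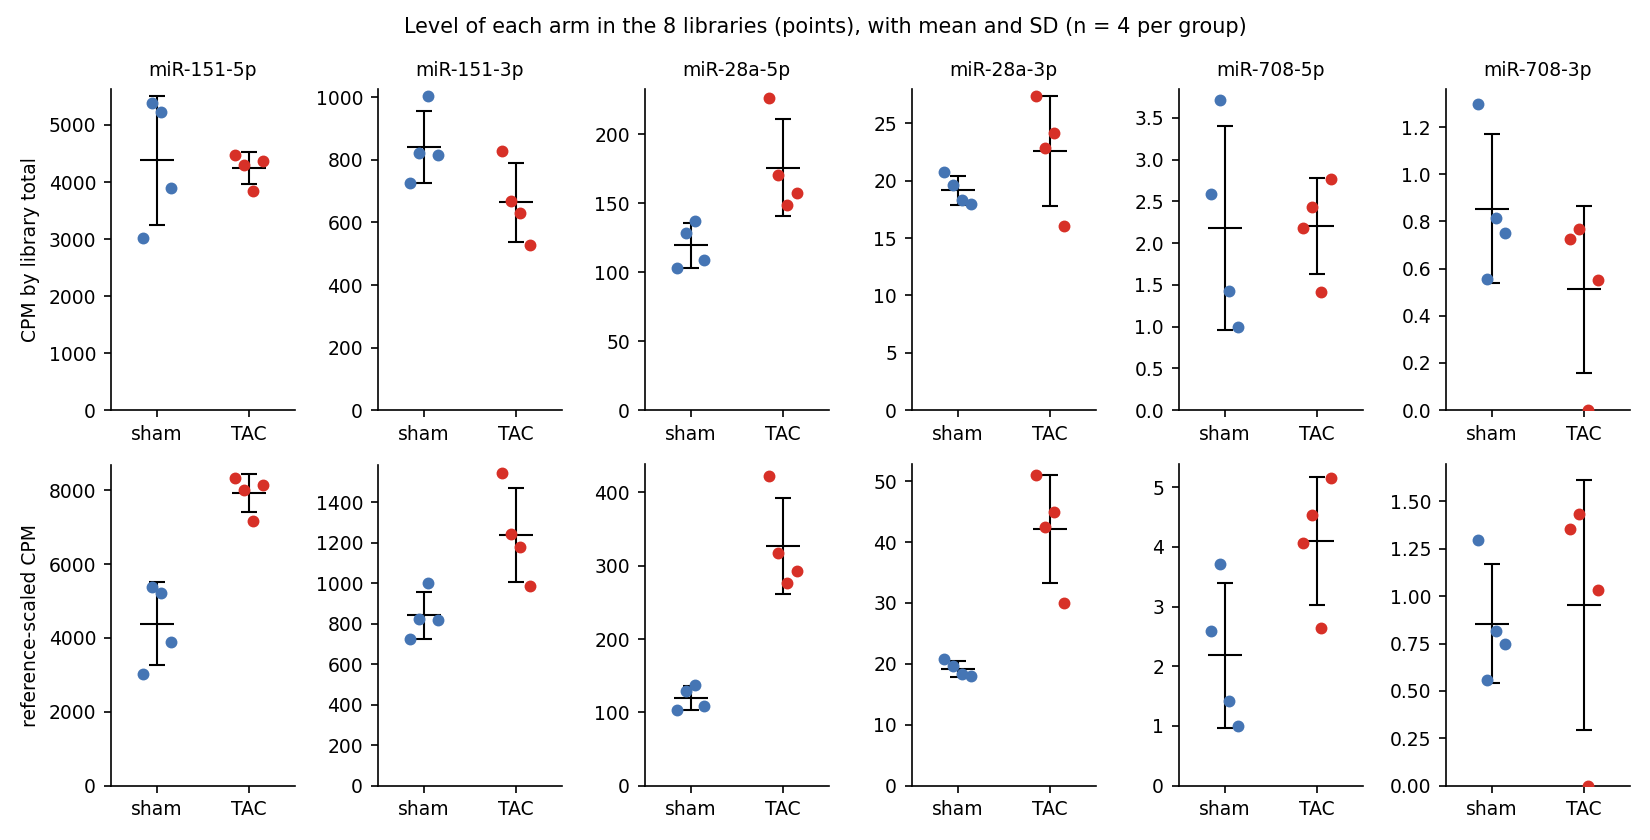
Level of each of the 6 arms in the 4 sham and 4 TAC libraries, as CPM by library total (top row) and reference-scaled CPM (bottom row), on axes that start at 0. Points are libraries in the order of mice 1 to 4 from left to right, and bars are the mean and SD. On the upper row only miR-28a-5p has no overlap of the groups, and on the lower row miR-151-5p, miR-28a-5p and miR-28a-3p have none.

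The arms of miR-708 were near the limit of these libraries. miR-708-5p had 12, 20, 7 and 4 counts in sham and 12, 19, 9 and 20 in TAC, and miR-708-3p had 6, 3, 4 and 3 in sham and 4, 6, 0 and 4 in TAC. Summed over the group, miR-708-5p had 2.27 CPM in sham (95% exact Poisson interval 1.64 to 3.06) and 2.23 CPM in TAC (1.704 to 2.874), intervals that largely coincide. miR-708-3p had 0.845 CPM in sham (0.483 to 1.37) and 0.521 CPM in TAC (0.285 to 0.874). The 0 in TAC mouse 3 allows up to 0.473 CPM, the value of 3 counts. By library total, a difference between the groups was not detectable for either arm at this depth. On the reference scale the TAC values were 4.16 CPM for miR-708-5p (3.17 to 5.35), an interval above that of sham, and 0.971 CPM for miR-708-3p (0.531 to 1.63), which overlaps it. The single libraries of miR-708-5p overlapped on that scale, with 0.999 to 3.71 reference-scaled CPM in sham and 2.64 to 5.16 in TAC. The intervals and the limit cover counting error only, since tags without molecular identifiers are not independent molecules. In an edgeR fit with no filter, the log2 fold changes with the reference scaling were 0.89 (SE 0.45) for miR-708-5p and 0.17 (SE 0.80) for miR-708-3p, and by library totals -0.0031 (SE 0.44) and -0.70 (SE 0.80).

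Counted over the members, 3 of the 4 tested (miR-28a-5p, miR-28a-3p and miR-151-5p) were called higher in TAC by edgeR with the reference scaling, where a call needs a fold change over 1.7 together with an adjusted p under 0.05. Of all 223 tested miRNAs, 36.8% were called higher in this way. With miR-126a-3p alone as the reference, 2 of the 4 were called higher, against 63 of all 223. The call of miR-151-5p was lost there, at a fold change of 1.68. Under TMM, 1 of the 4, miR-28a-5p, was called higher, against 1.35% of all tested, with a fold change of 1.71 that is barely past the threshold. The call under TMM was lost without Sham mouse 1 (fold change 1.66), Sham mouse 4 (1.68), TAC mouse 1 (1.54) or TAC mouse 2, where it came just under the threshold. By library totals 0 of the 4 were called higher, against 0.448% of all tested. Of the 4 members 0 were called lower, against 0.897% of all tested with the reference scaling, 4.48% under TMM and 10.3% by library totals. The TAC libraries all exceeded the sham libraries in 3 of the 4 on reference-scaled CPM, against 54.7% of all tested miRNAs. The same held for 1 of the 4, miR-28a-5p, under TMM, against 8.52%, and by library total, against 3.59%. By library total the TAC libraries were all under the sham libraries in 0 of the 4, against 27.4% of all tested. When TAC mouse 4 was left out, the groups were without overlap in each of the 4 members on reference-scaled CPM (59.6% of all tested had TAC above), and in miR-28a-5p and miR-28a-3p under TMM (13.9%) and by library total (5.38%). Since the members were picked with these groups in view, and miR-28a-3p passed the filter only through the TAC libraries, nothing is read from the counts.

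**Figure D2:**
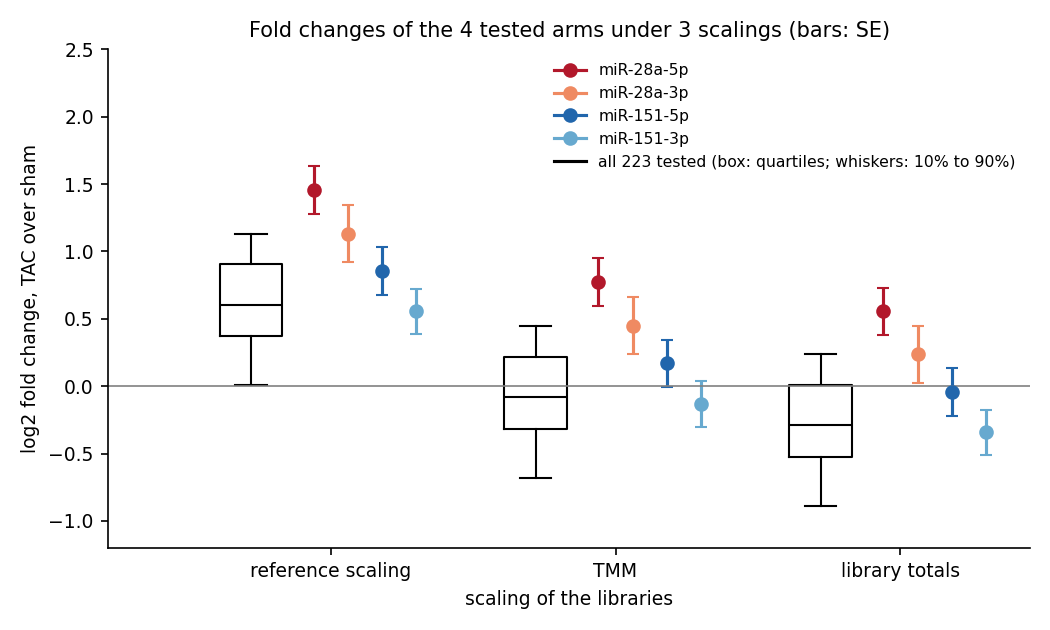
Log2 fold change of TAC over sham for the 4 tested arms (points, with standard errors from edgeR) under the reference scaling, TMM and library totals, beside the box of all 223 tested miRNAs (line: median; box: quartiles; whiskers: 10% to 90%). The order of the 4 arms is the same under each scaling, because a change of scaling moves all miRNAs by nearly the same amount. miR-28a-5p is above 0 in all 3 (1.45, 0.77 and 0.56), and miR-151-3p is above 0 only under the reference scaling.

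Ratios between members within a library do not depend on any scaling, and those of miR-28a to miR-151 were higher in the TAC libraries. miR-28a-5p amounted to 3.42%, 2.39%, 2.63% and 2.80% of the miR-151-5p count in the sham libraries and to 5.07%, 3.97%, 3.86% and 3.60% in the TAC libraries. The TAC values all exceeded the sham values, with means of 2.81% ± 0.439 and 4.13% ± 0.652 (SD, n = 4 each). miR-28a-3p amounted to 2.88%, 2.40%, 1.84% and 2.22% of miR-151-3p in sham and to 3.32%, 3.43%, 3.83% and 3.06% in TAC, again without overlap. The mean log2 ratio was higher in TAC by 0.55 for the 5p arms and by 0.56 for the 3p arms, which are ratios of 1.47 and 1.48, and by 0.62 and 0.61 without TAC mouse 4. Among all pairs of tested miRNAs, 21.7% had a ratio whose groups did not overlap in either direction, so such a ratio is common in these libraries. miR-28a-5p was between 33.9 and 96.8 times as abundant as miR-708-5p in sham and between 55.4 and 99.9 times in TAC, and these ratios overlapped.

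The balance of the arms also differed between the groups in the same direction in both hairpins, though less than the libraries differed among themselves at their extremes. The ratio of miR-28a-5p to miR-28a-3p was 4.96, 6.52, 7.45 and 6.01 in sham and 8.24, 7.45, 6.13 and 9.76 in TAC. The ratio of miR-151-5p to miR-151-3p was 4.17, 6.56, 5.21 and 4.76 in sham and 5.39, 6.44, 6.09 and 8.29 in TAC. In both hairpins the groups overlapped, Sham mouse 1 had the lowest ratio and TAC mouse 4 the highest. The mean log2 ratio was higher in TAC by 0.34 in miR-28a and by 0.34 in miR-151, and by 0.23 and 0.22 without TAC mouse 4. Without Sham mouse 1 the differences were similarly small, at 0.23 and 0.25.

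Set against the other hairpins, these shifts ranked high with all 8 libraries and less so without TAC mouse 4. In the 43 hairpins with both arms tested, the TAC minus sham difference of the log2 ratio of 5p to 3p had a median of -0.11, with 10% of hairpins below -0.72 and 10% above 0.27, and it was positive in 17. miR-151 ranked 3 and miR-28a 4 from the highest. They ranked 7 and 6 without TAC mouse 4, at 0.22 and 0.23, where 10% of hairpins were above 0.24 and the median was -0.17. Ranks without Sham mouse 1 were not taken. The groups did not overlap in 4 hairpins, all of them with a lower ratio in TAC, and neither miR-28a nor miR-151 was among these. miR-28a is 1 of the 43 hairpins only because miR-28a-3p passed the count filter through the TAC libraries.

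**Figure D3:**
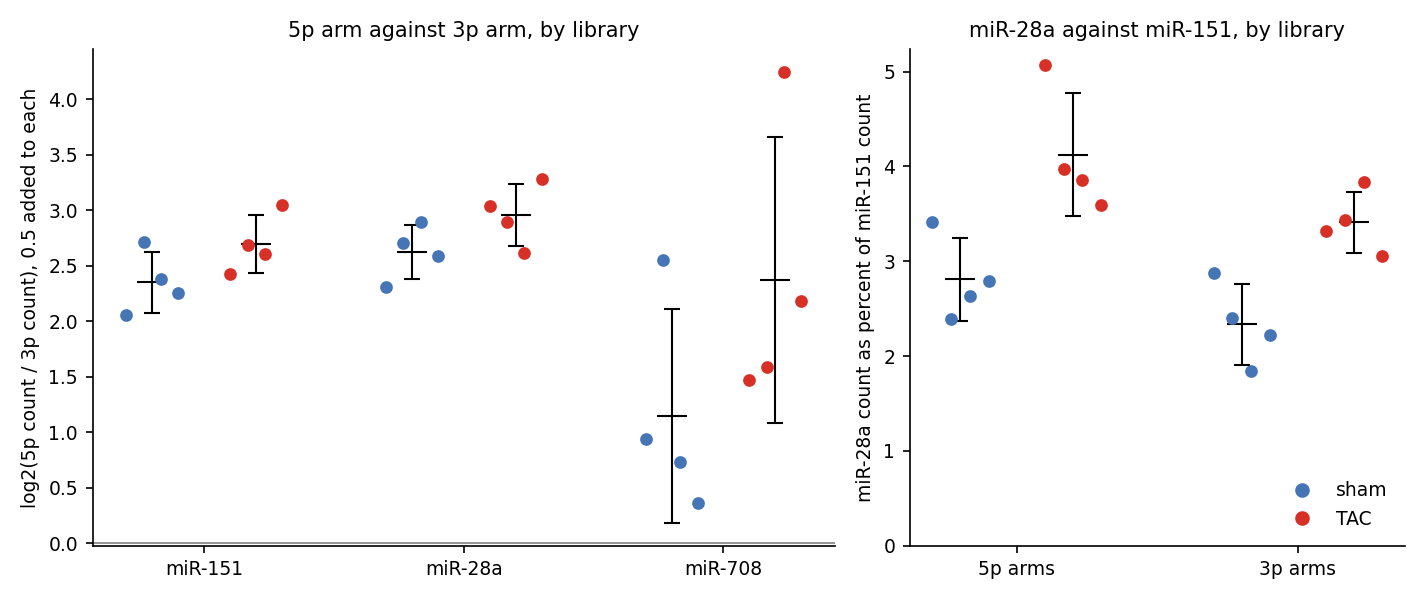
Left, log2 ratio of 5p to 3p counts (0.5 added to each) of miR-151, miR-28a and miR-708 by library. Right, miR-28a counts as a percent of miR-151 counts in the same library, for the 5p and the 3p arms, from 0. Points are the 4 sham (blue) and 4 TAC (red) libraries, and bars the mean and SD. The arm ratios are above 0 in all 8 libraries and overlap between the groups, and the ratios of miR-28a to miR-151 do not overlap.

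**Figure D4:**
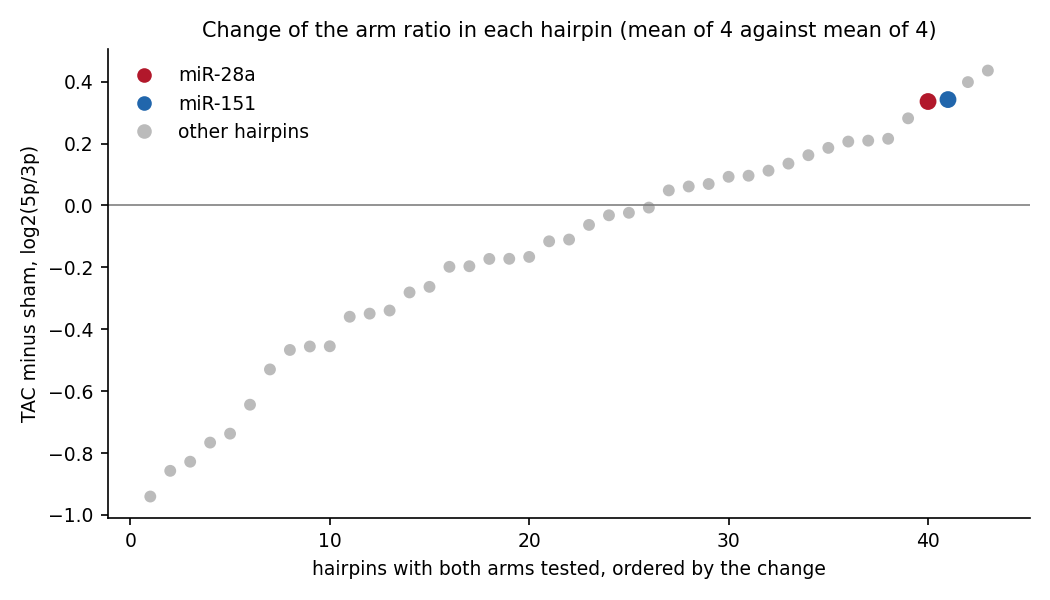
Difference of the mean log2 ratio of 5p to 3p counts between the 4 TAC and 4 sham libraries in each of the 43 hairpins with both arms tested, ordered from the lowest. miR-28a (red) and miR-151 (blue), both at 0.34, rank 4 and 3 from the highest, and 6 and 7 without TAC mouse 4.

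Other miRNAs followed the profiles of the major arms closely. Likeness was measured as the root-mean-square difference of log2(CPM + 1) by library total over the 8 libraries, each miRNA being centred on its own mean. The miRNAs nearest to miR-28a-5p were miR-1249-3p (0.163), miR-27b-5p (0.179) and miR-222-3p (0.181), where the median over all tested miRNAs was 0.523. By library total, miR-1249-3p had 25.04 ± 6.54 CPM in sham and 40.3 ± 8.48 in TAC, miR-27b-5p 46.3 ± 6.34 and 64.0 ± 13.1, and miR-222-3p 183 ± 45.4 and 233 ± 48.3 (SD over 4 libraries). The miRNAs nearest to miR-151-5p were miR-340-3p (0.0770), let-7e-5p (0.130) and miR-365-3p (0.140), where the median was 0.381. miR-340-3p had 36.7 ± 8.99 CPM in sham and 35.7 ± 3.16 in TAC, and let-7e-5p 1075 ± 272 and 962 ± 111. The spread of both was wider in sham than in TAC, as in miR-151-5p. This follows from their choice by likeness over the same libraries and is not a separate result. Without TAC mouse 4, 2 of the 3 nearest remained in each case.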

How the data were processed

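The authors deposited 1 table per library with raw counts of tags per mature mouse miRNA, without normalization. Their processing notes list mm10 and StringTie 1.3.1, and the aligner, the miRNA reference and the handling of tags that match several miRNAs are not given in the sources used here. Groups were taken from the sample labels, and no library was a copy of another. The members and all lists were chosen with earlier results of these data known.

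edgeR 4.0.16 in R 4.3.3 (estimateDisp, glmQLFit, glmQLFTest, group as the only term) was fitted to the miRNAs whose mean exceeded 100 counts, with Benjamini-Hochberg adjustment and a biological coefficient of variation of 0.255. Standard errors were obtained by dividing the log2 fold change by the square root of F. DESeq2 1.42.0 was an alternative. The other values came from scipy 1.17.1, statsmodels 0.14.6, pandas 2.3.3 and numpy 2.4.6 under Python 3.11.15, and the plots from matplotlib 3.10.9. The labels give only a group and a number per library, and 1 mouse per library is taken from the paper's methods. The p-values measure the spread between these libraries. Under the reference scaling, they and the standard errors leave out the uncertainty of the single factor for TAC.

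Named were the 6 members, listed miRNAs with a member's seed, the reference miRNAs, the markers, and the 3 miRNAs nearest in profile to miR-28a-5p and to miR-151-5p. miR-28c, miR-411-3p and miR-574-5p were named after their values were seen. The alternatives tried were other scalings, tools, filters, pseudocounts and fold thresholds, the replicate number as a block, and each library left out. TMM and library totals with each library left out, both without a filter for miR-708, and the overlap of groups, arm shifts and miR-708 intervals without TAC mouse 4 or on the reference scale were added after the data were seen.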

Additional observations from a re-analysis of the deposited data

Results flagged for a closer look

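The library of TAC mouse 4 lay far from the other 3 TAC libraries in 3 of 34 comparisons of single libraries with their group (Dixon's ratio above its 95% critical value, which chance gives in about 1 of 20 groups). It held 1406 CPM by library total over the 6 epithelial marker miRNAs, 88.9 CPM over the 3 pancreas acinar marker miRNAs and 29274 CPM over the 2 endothelial marker miRNAs, the last a low value. None of the 6 members and none of the 3 arm ratios stood apart in this way in either group.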

How the results depend on the processing

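The scaling moved the members most. The log2 fold changes of miR-28a-5p, miR-28a-3p, miR-151-5p and miR-151-3p were, in this order, 0.56, 0.23, -0.045 and -0.34 by library totals, 0.77, 0.45, 0.17 and -0.13 under TMM, and 0.81, 0.49, 0.22 and -0.088 in DESeq2 under the size factors it estimates. Without TAC mouse 4 they were 0.84, 0.61, 0.18 and -0.0087 under TMM and 0.60, 0.37, -0.060 and -0.25 by library totals. With no filter, miR-708-5p and miR-708-3p went from 0.89 and 0.17 to -0.0031 and -0.70 by library totals and to 0.37 and -0.36 under TMM. With each library left out under the reference scaling, the 4 tested members ran from 1.31 to 1.56, from 1.03 to 1.32, from 0.81 to 0.89 and from 0.43 to 0.71. Under TMM they ran from 0.62 to 0.86, from 0.34 to 0.61, from 0.063 to 0.30 and from -0.26 to -0.0087, and by library totals from 0.41 to 0.63, from 0.13 to 0.37, from -0.19 to 0.070 and from -0.47 to -0.25.

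Counts of miRNAs called higher and lower in TAC were 82 and 2 with the reference scaling, 1 and 23 by library totals, 3 and 10 under TMM, 5 and 9 in DESeq2 under the size factors it estimates, 127 and 2 with no filter, 142 higher with no fold change required, and 99 and 1 with miR-19b-3p alone. Without TAC mouse 4 they were 4 and 5 under TMM and 1 and 22 by library totals. With each library left out they ran from 59 to 106 higher and 1 to 2 lower with the reference scaling, from 1 to 4 and 4 to 9 under TMM, and from 1 to 2 and 16 to 26 by library totals. When the reference was miR-126a-3p only, miR-151-5p was no longer called (fold change 1.68). Members without overlap of the groups numbered 3 on reference-scaled CPM, 1 by library total and 1 under TMM.

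The 5p arm exceeded the 3p arm in 8 of 8 libraries in each hairpin, so the exact test is at its smallest p with any library left out and says nothing of stability. The mean log2 arm ratio ran from 2.72 to 2.86 in miR-28a, from 2.45 to 2.59 in miR-151 and from 1.41 to 1.96 in miR-708 over the libraries left out. With no pseudocount the arm ratio of miR-708 has no value, because of the 0 in TAC mouse 3. The TAC minus sham difference of the log2 arm ratio ran from 0.23 to 0.45 in miR-28a, from 0.22 to 0.46 in miR-151 and from 0.60 (without TAC mouse 3) to 1.69 in miR-708 over the libraries left out. With the replicate number as a replicate block the log2 fold changes were 1.44, 1.11, 0.89 and 0.55, with 76 called higher and 3 lower. The paper writes of 4 pairs of sham and TAC mice, and does not say whether the library numbers mark them. Deviations of same-numbered libraries correlated at 0.17, -0.37, 0.31 and -0.22, and 1 of the 4 sham libraries correlated best with its own number. So few values cannot show whether the libraries were paired. Depth limits miR-708, and the scaling of the TAC libraries cannot be settled from these counts.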
